A study of Mus musculus with 12 samples.

Results

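The genes described here encode the protein parts of plasma lipoproteins and the enzymes that build and remodel them. They were the rows of the expression table with the symbols Apoa1, Apoa2, Apoa4, Apoa5, Apoc3, Apob, Mttp, Lipc and Lcat, which made 9 of the 15846 genes measured. The choice named 10 genes, and 1 of them was not analysed here. RNA was sequenced from livers of C57BL/6 mice aged 5 months, with 3 mice in each of 4 groups. WT mice and Shp Hep-/- mice, which lack Shp (gene symbol Nr0b2, a nuclear receptor that acts as a corepressor) in hepatocytes and are called KO below, received chow or a diet labelled HFCF. All 12 livers were flash frozen whole, so other liver cells are included, and fewer cells of a type cannot be told apart from less RNA per cell. For the Cre driver and the make-up and length of the diet, the sources used here give no detail.

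Hepatocytes package triglyceride and cholesteryl ester around apolipoprotein B into very low density lipoprotein (VLDL), a step that needs the microsomal triglyceride transfer protein. High density lipoprotein (HDL) is built mainly on apolipoproteins A-I and A-II, and lecithin-cholesterol acyltransferase makes the cholesteryl ester that fills it. Apolipoproteins A-IV, A-V and C-III are exchangeable surface proteins of triglyceride-rich particles, and A-V and C-III act in opposite directions on their clearance by lipases. SHP is known to repress transcription through partners such as LRH-1 and HNF4A, and HNF4A is a known activator of many of these genes.

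Nr0b2 itself stood at 22.4 to 49.3 CPM (counts normalised to the TMM-scaled library size) in WT chow livers and at 47.6 to 53.4 in WT HFCF livers. In the KO livers it stood at 0.552 to 1.01 CPM on chow and at 0.210 to 0.509 CPM on HFCF, so no KO liver reached a WT liver. Libraries held 13967116 to 18324134 counts, and the 9 genes took up 4.13% to 4.73% of each. One library, WT HFCF replicate 1, stood apart from the other WT HFCF libraries: its chi-square per degree of freedom against them was 32.2 and 34.4, beside 11.2 between the others, and its summed macrophage markers were 1020.5 CPM beside 625 and 503. Where leaving it out changed the call of 1 of the 9 genes, the value without it is given below.

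Per unit of gene length, the genes spanned a wide range of levels. Mean FPKM (the authors' counts scaled by gene length and library) over the 12 livers was 11887 ± 2320 (SD) for Apoa2, which ranked 3 among all genes, and 6394 ± 817 for Apoa1, which ranked 8. Apob followed at 1758 ± 149, then Apoa4 at 768 ± 620, Apoc3 at 730 ± 97.7 and Apoa5 at 678 ± 93.7. Lcat (241 ± 25.4), Mttp (110 ± 17.6) and Lipc (67.0 ± 11.6) were lowest. The ranges over the 12 livers did not overlap between Apoa2 and Apoa1, Apoa1 and Apob, Apoa5 and Lcat, or Lcat and Mttp. They overlapped between Apob and Apoa4, Apoa4 and Apoc3, Apoc3 and Apoa5, and Mttp and Lipc. Apoa4 was the most variable member: its log2 CPM had an SD of 1.03 over the 12 livers, beside 0.13 for Apob, the least variable, and 0.28 for Apoa2, the next most variable after Apoa4.

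Of the genes, 4 lie together: Apoa1 (chromosome 9, 46228580 to 46230466, plus strand), Apoc3 (46232933 to 46235636, minus strand), Apoa4 (46240696 to 46243459, plus strand) and Apoa5 (46268633 to 46271919, plus strand) span 43.3 kb in build mm10. Apoa2 is on chromosome 1 (171225054 to 171226379, plus strand) and Apob on chromosome 12 (7977648 to 8016835, plus strand). Mttp is on chromosome 3 (138089855 to 138143388, minus strand), Lipc on chromosome 9 (70798129 to 70952226, minus strand) and Lcat on chromosome 8 (105939551 to 105943382, minus strand). All 9 are annotated as protein coding.

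RefSeq promoter windows (build GRCm38.p6) were found for 8 of the 9 genes, 11 windows in all, and not for Apoc3, which the counts below leave out. The 250 bases before each start were searched on both strands for elements of the factors named above. The LRH-1 element TCAAGGTCA and its shorter form CAAGGTCA, which lies within it, were in 0 of the 11 windows, beside 0.387% and 1.33% of 32851 windows of all genes. The DR1 repeat of AGGTCA and the HNF4 core CAAAGTCCA were also in 0, beside 0.0335% and 0.384%. The nuclear receptor core AGGTCA, which is part of the LRH-1 element and of the repeat, was in 2 windows (an alternative start of Apoa2 and one of Lipc), beside 14% of all windows. After the sequences were seen, the looser form CAAAGNNCA was searched and was in 3 windows (Apoa4, Apob and Lipc), beside 5.49%, and the TATA box TATAAA was in 4 (Apoa2, both starts of Apoa5, and Apob), beside 12.4%. As these 2 forms were picked from the same windows, their counts are a description only. The CAAAGNNCA match of Lipc shares letters with an AGGTCA match, both 76 bases before its start. The Apoa5 windows overlap and hold the same stretch, 31 and 56 bases before their starts. The TATAAA match of Apoa2 lay 212 bases before its RefSeq start and that of Apob 60. The RefSeq windows of Apob and Apoa4 run to 7977676 and 46240843, past the annotated gene starts at 7977648 and 46240696. Matches in these 2 windows therefore lie closer to the annotated starts, where the stretches printed below end. These are matches of letters and not sites of binding. The stretches before the annotated gene starts of Apoa4 (the gene with the largest change), Apoa2 (the gene whose genotype difference passed the test on both diets) and Apob (the gene with the most counts) read as follows, with the matches to CAAAGNNCA and TATAAA, on either strand, in capitals.
Apoa4, chr9:46240594-46240695, plus strand: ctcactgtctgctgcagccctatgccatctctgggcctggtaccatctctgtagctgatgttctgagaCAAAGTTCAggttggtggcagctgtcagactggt
Apoa2, chr1:171224804-171225053, plus strand: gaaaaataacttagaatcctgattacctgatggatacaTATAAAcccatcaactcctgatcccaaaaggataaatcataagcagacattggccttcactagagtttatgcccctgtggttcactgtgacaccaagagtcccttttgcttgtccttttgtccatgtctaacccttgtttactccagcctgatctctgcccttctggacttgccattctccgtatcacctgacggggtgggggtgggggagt
Apob, chr12:7977427-7977647, plus strand: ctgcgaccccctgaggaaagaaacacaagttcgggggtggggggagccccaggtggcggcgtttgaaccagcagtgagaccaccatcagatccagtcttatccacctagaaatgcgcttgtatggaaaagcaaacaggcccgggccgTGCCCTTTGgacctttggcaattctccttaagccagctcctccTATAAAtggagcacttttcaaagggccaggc

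In what follows, a difference is a log2 fold change ± its standard error, estimated by the quasi-likelihood method of edgeR with all 12 libraries in 1 model. An adjusted p is its Benjamini-Hochberg value over all 14736 genes tested, and a gene is said to rise or fall where that value is under 0.05. All 9 genes passed the filter on low counts. The labels name separate mice, but p-values measure only the spread between these samples. The WT chow livers serve both the diet comparison in WT and the genotype comparison on chow, and each other group is likewise shared by 2 comparisons, so these are not independent of each other.

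Across the set, feeding HFCF to WT mice raised 1 gene, Apoa4, and lowered 1, Mttp, with 7 not called; 13.7% of all tested genes were called (7.76% higher and 5.9% lower). The WT groups did not overlap for 6 of the 9 genes, beside 31.1% of all genes. In KO mice the diet changed 0 of the 9, where 2.65% of all genes were called (1.47% higher and 1.18% lower), and Mttp was the 1 gene whose groups did not overlap, beside 24.4% of all genes; at an unadjusted p under 0.05 there was also 1. The knockout lowered Apoa2 and raised 0 of the 9 on chow, beside 15.5% of all genes called (9.72% higher and 5.82% lower), with 2 genes not overlapping beside 36.1%. On HFCF the knockout lowered Apoa2 and Apoc3 and raised 0, beside 19.1% of all genes called (10.6% higher and 8.52% lower), with 3 not overlapping beside 34.2%. The median difference of the 9 genes was -0.14 for the diet in WT, -0.01 for the diet in KO, -0.12 for the genotype on chow and -0.01 for the genotype on HFCF. Over all tested genes these medians lay between -0.0033 and 0.0201. The test of whether the diet effect differed between genotypes (the interaction) called 0 of the 9, beside 0.794% of all genes (0.373% higher and 0.421% lower), and DESeq2 also called 0; 1 gene, Apoa1, had an unadjusted p under 0.05. Counts of 0 to 2 of 9 lie near these background shares and are no result about the set, so the genes are described singly.

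**Figure D1:**
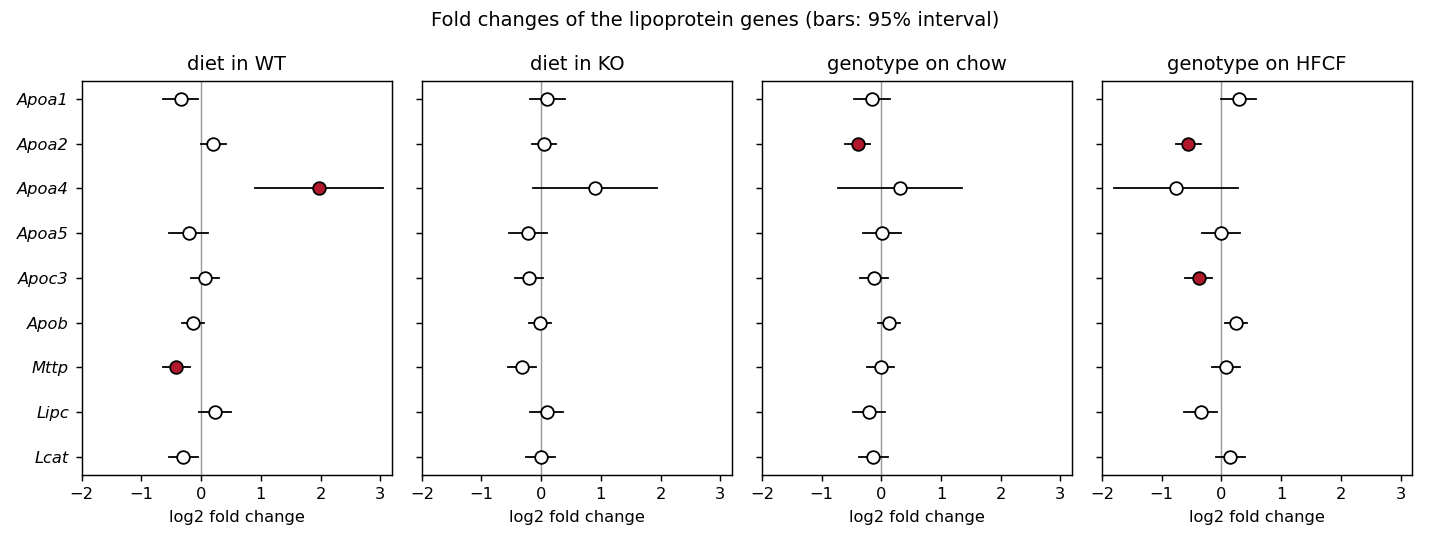
Log2 fold changes of the 9 genes in the 4 comparisons, from edgeR's fit of all 12 libraries. Points are estimates, bars are 95% intervals, and filled points have an adjusted p under 0.05: Apoa4 and Mttp for the diet in WT, Apoa2 for the genotype on chow, and Apoa2 and Apoc3 for the genotype on HFCF.

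Of the genes of the main HDL apolipoproteins, Apoa2 passed the test and Apoa1 did not. Apoa2, which encodes the second most abundant protein of HDL, was lower in KO livers on both diets. On chow, WT livers gave 6573, 7202 and 6955 CPM, against 5387, 5134 and 5223 for KO. On HFCF, WT livers gave 8346, 8329 and 7210.2 CPM, against 5812, 4766 and 5717 for KO. Every KO liver was below every WT liver of the same diet, and also below every WT liver of the other diet. The difference was -0.40 ± 0.10 on chow (edgeR adjusted p = 0.0141), a level 0.760 times that of WT. For HFCF it was -0.55 ± 0.10, or 0.682 times WT (edgeR adjusted p = 0.0014). The call on chow was lost without WT chow replicate 3 (edgeR adjusted p = 0.0584), while the call on HFCF held in all 22 alternatives, with an adjusted p of 0.00273 without WT HFCF replicate 1. The diet effects on Apoa2 were 0.20 ± 0.10 in WT (edgeR adjusted p = 0.178) and 0.05 ± 0.10 in KO (edgeR adjusted p = 0.841), so neither passed the test, although the WT groups did not overlap.

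Apoa1, whose product is the main protein of HDL and the activator of lecithin-cholesterol acyltransferase, passed in none of the comparisons. On chow, its CPM was 7642, 9556 and 8856 for WT livers, against 7368, 8594 and 7411 for KO. On HFCF, WT livers had 5933, 8475 and 6159 CPM, against 8122, 7693 and 9315 for KO. WT HFCF replicates 1 and 3 were the lowest of all 12 livers, while replicate 2 lay among the other groups. The diet effect was -0.34 ± 0.14 in WT (edgeR adjusted p = 0.121) and 0.10 ± 0.14 in KO (edgeR adjusted p = 0.752), and the interaction was 0.45 ± 0.20 (edgeR adjusted p = 0.344). The genotype difference was -0.16 ± 0.14 on chow (edgeR adjusted p = 0.483), while the HFCF value was 0.29 ± 0.14 (edgeR adjusted p = 0.170). Of the 12 libraries, leaving out WT HFCF replicate 2 alone brought calls: the WT diet effect was then -0.52 (edgeR adjusted p = 0.0197) and the HFCF genotype difference 0.47 (edgeR adjusted p = 0.0238).

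The ratio of Apoa2 to Apoa1 within a liver, which does not depend on how libraries are scaled, put both genes in 1 measure. This and the other ratios below were chosen after the values were seen. In FPKM it was 1.98, 1.74 and 1.81 in WT chow livers and 1.68, 1.38 and 1.62 in KO chow livers. It was 3.24, 2.26 and 2.70 in WT HFCF livers and 1.65, 1.43 and 1.41 in KO HFCF livers. The WT HFCF livers stood above all 9 others, and the KO livers of each diet stood below the WT livers of that diet. Each of the diet comparison in WT, the genotype comparison on chow and that on HFCF gave p = 0.1 in a two-sided exact permutation test, the smallest that 3 against 3 can give (0.182 after Benjamini-Hochberg adjustment over 20 ratio tests). In KO the diet effect on the ratio was -0.0647 (two-sided exact permutation p = 0.9).

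**Figure D2:**
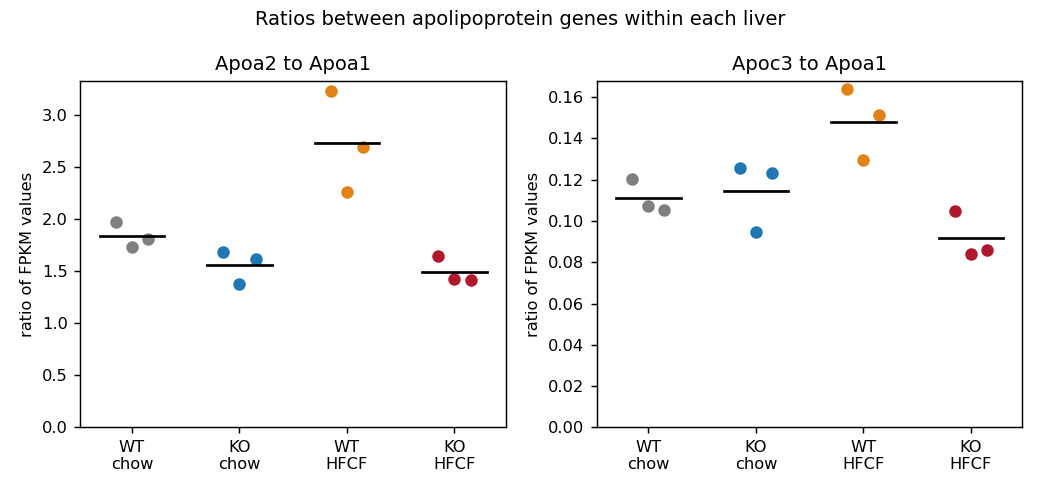
Ratios of FPKM values within each of the 12 livers, Apoa2 to Apoa1 on the left and Apoc3 to Apoa1 on the right. Points are livers, lines are group means, and axes start at 0. The 3 WT HFCF livers are highest in both panels, at 2.26 to 3.24 and at 0.129 to 0.164.

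Of the exchangeable apolipoproteins of triglyceride-rich particles, Apoa4 had the largest diet effect of the set. Apolipoprotein A-IV is made mainly in the intestine, and in the mouse also in the liver. In WT livers its gene reached 352, 1185 and 434 CPM on chow, against 4497, 2025 and 1221 on HFCF. In KO livers it reached 555, 1125 and 769.9 CPM on chow, against 1825, 1010.3 and 1756 on HFCF. In WT every HFCF liver was above every chow liver, but the lowest HFCF liver and the highest chow liver were 1221 and 1185 CPM, and in KO the groups overlapped. The diet effect in WT was 1.97 ± 0.50, a 3.93-fold rise (edgeR adjusted p = 0.0188). Without WT HFCF replicate 1 it was 1.31 (edgeR adjusted p = 0.0883), and the call was also lost without WT chow replicate 1 (0.0713) or 3 (0.0834). In KO the diet effect was 0.91 ± 0.48 (edgeR adjusted p = 0.351). The difference between these effects was -1.07 ± 0.68 (edgeR adjusted p = 0.546), and without WT HFCF replicate 1 it was -0.40 (0.851). Neither genotype difference passed (0.31 ± 0.48 for chow, edgeR adjusted p = 0.706; -0.75 ± 0.48 for HFCF, adjusted p = 0.314). Without WT HFCF replicate 1 the HFCF genotype difference was -0.09 (edgeR adjusted p = 0.930).

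Since Apoa4 is an intestinal gene, markers of intestinal epithelium were read beside it. Of 12 such markers 4 were measured, and their summed level was 131 to 142 CPM in WT chow, 105 to 119 in KO chow, 261 to 276 in WT HFCF and 215 to 242 in KO HFCF. Of the 4, 1 rose and 2 fell with the diet in WT, beside 13.7% of all tested genes called. The one that rose, Fabp2, an intestinal fatty acid binding protein, rose with the diet in both genotypes (1.07 ± 0.08 in WT, edgeR adjusted p = 3.45e-06, and 1.10 ± 0.08 in KO, edgeR adjusted p = 7.35e-06). The defining markers Vil1, Cdx1 and Cdx2 were not analysed here. Their part in the Apoa4 result was not tested.

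The gene most like Apoa4 across the 12 livers was Gm10680 (chromosome 9, 46242621 to 46243529, minus strand), annotated as antisense. Likeness was the mean absolute difference in log2 CPM after centring each gene on its own mean, among 8065 genes whose mean reached 10 CPM, and it was 0.0199 for Gm10680. Of its 909 bases, 839 lie within the span of Apoa4, and its counts were 0.526 to 0.555 times those of Apoa4 in all 12 libraries. The libraries were made with a stranded kit, but no source used here gives the strand setting of the counting, so reads of the 2 genes may not have been told apart. The next were Maff (0.376), a small Maf transcription factor, Osbpl3 (0.398), an oxysterol-binding protein relative, and Anxa2 (0.414), annexin A2. Their diet effects in WT spanned 1.10 to 1.97, given as a description since they were chosen for their pattern.

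Apoa5 and Apoc3 lie on either side of Apoa4, and neither passed the test for the diet in WT or KO. Apoc3, whose product slows the clearance of triglyceride-rich particles, had 753, 841 and 766 CPM for WT livers on chow, against 758, 668 and 748 for KO. On HFCF the WT values were 797, 899 and 764 CPM, against 699, 531 and 658 for KO. All 3 KO HFCF livers were below all 3 WT HFCF livers, while on chow the genotypes overlapped. The genotype difference was -0.38 ± 0.11 on HFCF (edgeR adjusted p = 0.0242), a level 0.768 times that of WT, and -0.12 ± 0.11 on chow (edgeR adjusted p = 0.499). The diet effect was 0.06 ± 0.11 in WT (edgeR adjusted p = 0.759) and -0.20 ± 0.11 in KO (edgeR adjusted p = 0.347). The interaction did not pass (-0.26 ± 0.15, edgeR adjusted p = 0.498). The call on HFCF held without WT HFCF replicate 1 (edgeR adjusted p = 0.0329) and was lost without WT HFCF replicate 2 (0.102), without KO HFCF replicate 2 (0.0661) and in a fit of the compared groups alone (0.0518).

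Apoa5, whose product aids lipolysis by lipoprotein lipase, had 1747, 1867 and 1889.8 CPM for WT livers on chow, against 1803, 1956 and 1776 for KO. The HFCF values were 1603, 1706 and 1444 CPM for WT, against 1550.4, 1165 and 2011 for KO. The KO HFCF group held both the lowest and the highest of all 12 livers. The diet effect was -0.21 ± 0.15 in WT (edgeR adjusted p = 0.375), where the groups did not overlap, and -0.23 ± 0.15 in KO (edgeR adjusted p = 0.455). Both genotype differences were within 0.01 of 0, with 95% intervals from -0.31 to 0.33 on chow and from -0.33 to 0.31 on HFCF.

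**Figure D3:**
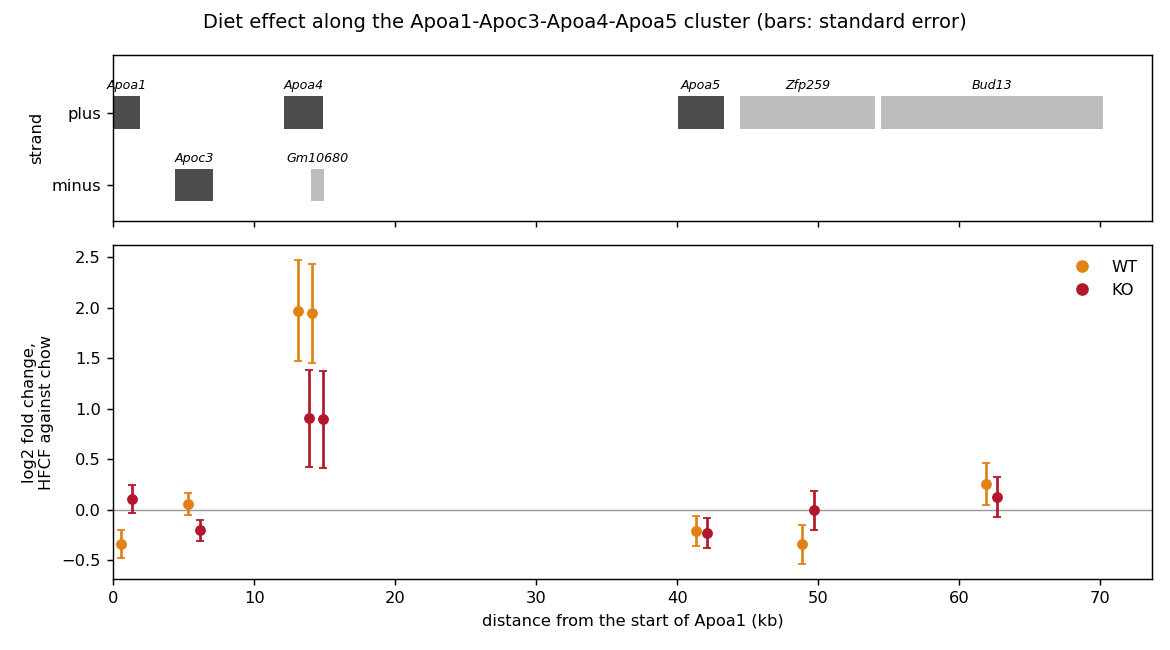
The upper panel maps the genes of the chromosome 9 cluster by distance from the start of Apoa1 in kb, on the plus and minus strands, with the 9-gene set in dark grey. The lower panel gives each gene's log2 fold change, HFCF against chow, with its standard error, in WT and KO: Apoa4 and the overlapping Gm10680 stand at 1.97 and 1.95 in WT and at 0.91 and 0.90 in KO, and every other gene shown lies between -0.34 and 0.26.

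Genes flanking the cluster were read for comparison. Of 8 tested neighbours, 1 was called for the diet in WT, beside 13.7% of all tested genes. It was Rnf214, a RING finger protein gene, which fell by 0.33 ± 0.08 (edgeR adjusted p = 0.0129), a call lost without WT chow replicate 1 or WT HFCF replicate 1. The closest to Apoa5, Zfp259 (-0.34 ± 0.19, edgeR adjusted p = 0.265) and Bud13 (0.26 ± 0.21, edgeR adjusted p = 0.441), did not pass. In the other comparisons 0 of the 8 were called by edgeR.

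**Figure D4:**
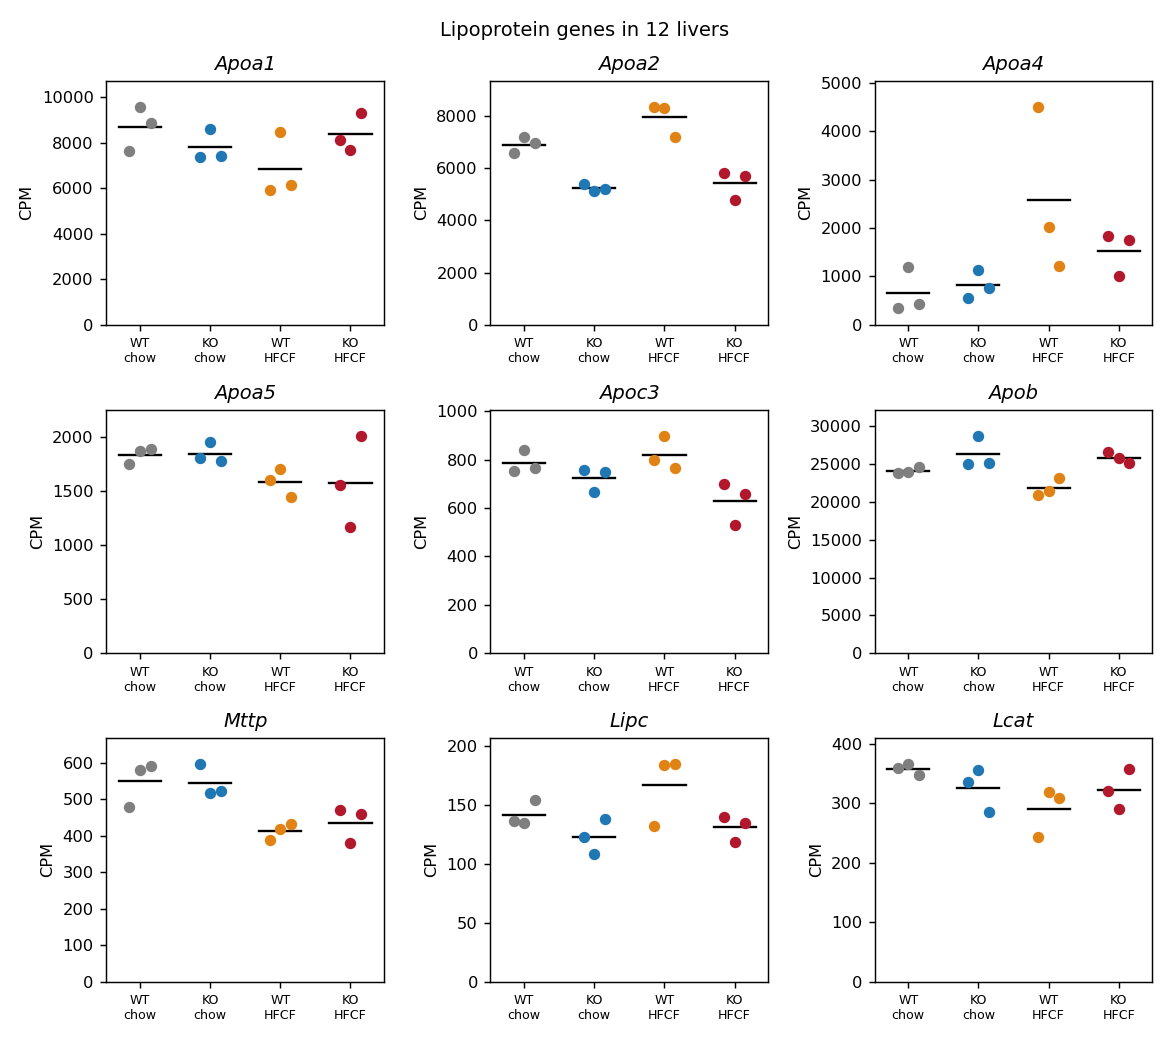
Expression of each of the 9 genes in CPM, 1 panel per gene, with all axes starting at 0. Points are livers (3 per group) and lines are group means. Apoa2 is lower in all 6 KO livers than in any WT liver, Mttp is lower in the HFCF than in the chow livers of each genotype, and Apoa4 has the widest spread, from 352 to 4497 CPM.

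VLDL assembly rests on Apob and Mttp. Mttp, which encodes the lipid-loading subunit of the transfer protein, was lower on HFCF. WT livers had 478, 579.6 and 591 CPM on chow, against 387, 417 and 433 on HFCF. KO livers had 596, 517 and 522 CPM on chow, against 469, 379.5 and 459 on HFCF. In both genotypes every HFCF liver was below every chow liver. The diet effect was -0.41 ± 0.11 in WT (edgeR adjusted p = 0.0220), a level 0.750 times that on chow, and -0.32 ± 0.11 in KO (edgeR adjusted p = 0.125). The interaction was 0.09 ± 0.15 (edgeR adjusted p = 0.869), with a 95% interval from -0.24 to 0.42. The WT call was lost without WT HFCF replicate 1 (edgeR adjusted p = 0.0735), WT HFCF replicate 2 (0.0534), WT chow replicate 2 (0.0846) or WT chow replicate 3 (0.0890), with effects of -0.36 to -0.42. Between genotypes Mttp differed by -0.01 ± 0.11 on chow (edgeR adjusted p = 0.959), while the HFCF value was 0.08 ± 0.11 (edgeR adjusted p = 0.666).

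Apob, the structural protein of VLDL and low density lipoprotein, took the most counts of the 9 genes. Chow-fed WT livers had 23807, 23925 and 24589.9 CPM, against 24955, 28769.8 and 25129 for KO. HFCF-fed WT livers had 20884, 21480.2 and 23196 CPM, against 26639, 25765 and 25159 for KO. On both diets every KO liver was above every WT liver, and on neither did the difference pass the test (0.12 ± 0.08 for chow, edgeR adjusted p = 0.349; 0.24 ± 0.09 for HFCF, adjusted p = 0.0624). On HFCF it passed in 3 of 22 alternatives. These were DESeq2 (adjusted p = 0.0229), upper quartile scaling in edgeR (0.0433) and leaving out KO chow replicate 2 (edgeR, 0.0447). Without WT HFCF replicate 1 the edgeR adjusted p was 0.106. The diet effect was -0.14 ± 0.09 in WT (edgeR adjusted p = 0.298) and -0.02 ± 0.08 in KO (edgeR adjusted p = 0.922). The FPKM ratio of Mttp to Apob within a liver averaged 0.0720 ± 0.00745 (SD, n = 3) for WT chow, 0.0660 ± 0.00934 for KO chow, 0.0596 ± 0.00151 for WT HFCF and 0.0533 ± 0.00591 for KO HFCF. It was lower in every WT HFCF than in every WT chow liver, and lower in every KO HFCF than in every WT HFCF liver, each with the smallest possible two-sided exact permutation p of 0.1 (0.182 adjusted over the 20 ratio tests). The highest KO HFCF and the lowest WT HFCF values were 0.0576 and 0.0586. The groups overlapped for the diet in KO and the genotype on chow (two-sided exact permutation p = 0.2 and 0.5).

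The 2 enzymes that remodel particles in plasma passed in none of the comparisons with all 12 libraries. Lipc encodes hepatic lipase, which hydrolyses the lipids of remnants and HDL. On chow, CPM was 136, 135 and 154 for WT, against 123, 109 and 138 for KO. On HFCF, CPM was 132, 184 and 185 for WT, against 140.0, 119 and 135 for KO. WT HFCF replicate 1 lay below KO HFCF replicates 1 and 3, while the other 2 WT HFCF livers were above all other livers. The diet effect in WT was 0.23 ± 0.13 (edgeR adjusted p = 0.247), and without WT HFCF replicate 1 it was 0.38 and passed (edgeR adjusted p = 0.0403). The genotype difference on HFCF was -0.35 ± 0.13 (edgeR adjusted p = 0.0736), and without WT HFCF replicate 1 it was -0.49 (edgeR adjusted p = 0.00539). It also passed with DESeq2 (adjusted p = 0.0388) and with library totals as the only scaling (edgeR adjusted p = 0.0406). In all it passed in 3 of 22 alternatives.

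Lcat encodes lecithin-cholesterol acyltransferase. WT CPM was 359, 366 and 347 on chow, against 244, 319.7 and 309 on HFCF. KO CPM was 336, 356 and 285 on chow, against 320.3, 291 and 357 on HFCF. All 3 WT HFCF livers were below the WT chow livers, and the KO groups overlapped. The diet effect was -0.30 ± 0.12 in WT (edgeR adjusted p = 0.106) and -0.01 ± 0.11 in KO (edgeR adjusted p = 0.976), and the interaction was 0.29 ± 0.16 (edgeR adjusted p = 0.488). Without WT HFCF replicate 1 the WT diet effect was -0.18 (edgeR adjusted p = 0.337) and the interaction 0.17 (edgeR adjusted p = 0.673).

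Cell type markers moved with some of these differences. The summed level of 18 hepatocyte markers was 68883 to 74679 CPM in WT HFCF livers, below the 83647 to 85859 of WT chow, the 77234 to 89266 of KO chow and the 84633 to 92830 of KO HFCF. With the diet in WT, 1 of the 18 rose and 7 fell, with a median of -0.34, beside 13.7% of all tested genes called. In KO against WT livers on HFCF, 6 of the 18 rose and 4 fell, with a median of 0.21, beside 19.1% of all tested genes called. Ttr, which encodes transthyretin, was among those that fell on HFCF, against the median of the list (-0.57 ± 0.10, edgeR adjusted p = 0.00105). With the diet in WT it differed by 0.06 ± 0.09 (edgeR adjusted p = 0.745). The summed level of 19 macrophage markers was 532 to 579.53 CPM in WT chow, 856 to 923 in KO chow, 503 to 1020.5 in WT HFCF and 1122 to 1197 in KO HFCF. Of the 19, 13 rose and 0 fell with the knockout on chow, beside 15.5% of all tested genes called. On HFCF 11 rose and 0 fell, beside 19.1%. With the diet 5 rose in WT and 1 in KO, beside 13.7% and 2.65%. Of 12 stellate cell and fibroblast markers, 6 rose with the diet in WT and 0 in KO, and 0 fell. With the knockout 5 of these rose on chow and 2 on HFCF, and 0 fell. Of 7 adipose markers listed, 3 were measured, and their summed level was 4246 to 5229 CPM in WT HFCF and at most 1146 in any other liver. Whether this RNA came from fat cells or from hepatocytes was not tested. The part of these markers in the results on the 9 genes was not tested.

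The genes whose levels were most like those of Apoa2 over the 12 livers, by the measure used for Apoa4, were 0610011F06Rik (0.0484), Ndufa10 (0.0579), Uqcrc1 (0.0603) and Cyp2d22 (0.0629). Ndufa10 and Uqcrc1 encode subunits of respiratory complexes I and III, and Cyp2d22 a cytochrome P450. As a description, their genotype differences lay between -0.44 and -0.36 on chow and between -0.52 and -0.44 on HFCF.

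The rest of the lipoprotein pathway was read from lists of other apolipoproteins and proteins that bind or edit them, VLDL assembly, receptors, HDL and lipase control, and transcriptional regulators. For comparison, the share of all tested genes called was 13.7% for the diet in WT and 2.65% in KO. For the genotype it was 15.5% on chow and 19.1% on HFCF. No list was tested against these shares. Among 17 other apolipoproteins and related genes, 5 rose and 6 fell with the diet in WT, with a median of 0.06. Apom, which carries sphingosine-1-phosphate on HDL, fell by 0.97 ± 0.12 (edgeR adjusted p = 0.000275), and Apoc2, the cofactor of lipoprotein lipase, rose by 0.88 ± 0.15 (edgeR adjusted p = 0.00242). In KO 1 of the 17 rose with the diet, Clu, which encodes clusterin (0.40 ± 0.08, edgeR adjusted p = 0.0217). The knockout raised 3 and lowered 0 on chow, and raised 7 and lowered 0 on HFCF, with a median of 0.19. Apol9a and Apol9b, near-identical genes whose reads may be shared, rose by 2.19 and 1.52 on HFCF, and Apof (0.70 ± 0.09, edgeR adjusted p = 0.00013) and Apon (0.82 ± 0.11, edgeR adjusted p = 0.000182) rose too. The diet count in WT ranged from 4, without WT chow replicate 3, to 12 when 1 library was left out, and was 6 without WT chow replicate 1 or 2, or without WT HFCF replicate 1 or 2. The KO diet count of 1 fell to 0, with the call of Clu lost, without KO chow replicate 1 or 3 or KO HFCF replicate 1 or 3, and it rose to 4 without WT HFCF replicate 1. The chow genotype count of 3 ranged from 2 to 5, the latter without WT HFCF replicate 1.

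Of 28 genes of VLDL assembly and secretion, 2 rose and 7 fell in KO livers on HFCF, with a median of -0.02. Those with the lowest adjusted p were Ces1d (-1.09 ± 0.13, edgeR adjusted p = 0.000106) and Ces1f (-0.96 ± 0.12, edgeR adjusted p = 0.000119), which encode carboxylesterases. Dgat2, which encodes an enzyme of triglyceride synthesis (-0.53 ± 0.09, edgeR adjusted p = 0.0013), and the lipase-like Aadac (-0.45 ± 0.09, edgeR adjusted p = 0.00352) fell too. On chow 1 rose and 4 fell, among them Ces1f (-0.55 ± 0.12, edgeR adjusted p = 0.00809), and this count of 5 fell to 2 without WT chow replicate 3 or KO chow replicate 2. With the diet in WT 1 rose, Dgat2 (0.53 ± 0.09, edgeR adjusted p = 0.00222), and 3 fell, Tm6sf2 (-0.66), Hspa5 (-0.64) and Sec23a (-0.26). The calls of Tm6sf2, Hspa5 and Sec23a were each lost without WT chow replicate 1, that of Hspa5 also without WT HFCF replicate 1, those of Tm6sf2 and Sec23a also without WT chow replicate 2 or WT HFCF replicate 2, and that of Sec23a also without WT chow replicate 3. That count of 4 ranged from 1, without WT chow replicate 1, to 7, without KO HFCF replicate 1, and was 2 without WT chow replicate 2 or WT HFCF replicate 2. In KO the diet changed 0 of the 28 in edgeR's fit. The shares of all tested genes called were 13.7% and 2.65% for the diet in WT and KO. They were 15.5% and 19.1% for the genotype on chow and HFCF. The counts of 4 for the diet in WT and 5 for the genotype on chow lie near these shares and are no result about the list.

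Of 19 genes of lipoprotein receptors and uptake, 7 rose and 4 fell in KO livers on HFCF, and 6 rose and 4 fell on chow. Scarb1, the HDL receptor SR-BI, rose by 0.60 ± 0.09 with the knockout on chow (edgeR adjusted p = 0.000685), and the HFCF rise was 0.82 ± 0.09 (edgeR adjusted p = 3.84e-05). Vldlr, the VLDL receptor, fell on chow (-2.03 ± 0.33) and HFCF (-2.53 ± 0.30; edgeR adjusted p = 0.00137 and 8.12e-05), and so did the fatty acid transporter gene Cd36 (-1.21 ± 0.17 and -2.15 ± 0.17; edgeR adjusted p = 0.000504 and 3.18e-06). Lrp2, the endocytic receptor megalin, rose by 2.94 ± 0.23 and 3.72 ± 0.24 from 1.32 to 2.27 CPM in WT livers (edgeR adjusted p = 4.9e-06 and 4.45e-07). The diet raised 5 and lowered 3 of the 19 in WT and raised 1 and lowered 1 in KO. The count of 8 in WT ranged from 3, without WT chow replicate 3, to 9, and was 4 or 5 without WT chow replicate 1 or 2 or WT HFCF replicate 1 or 2. On chow the count of 10 ranged from 5, without WT chow replicate 3, to 10, and was under 7 also without WT chow replicate 2 or KO chow replicate 2. These counts stand beside 19.1% of all tested genes called for the genotype on HFCF and 15.5% on chow. For the diet the shares were 13.7% in WT and 2.65% in KO.

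Of 18 genes of HDL formation and lipase control, 7 rose and 2 fell with the diet in WT, with a median of 0.28, and 3 rose and 1 fell in KO, with a median of 0.01. Lpl, lipoprotein lipase, rose by 1.58 ± 0.13 in WT (edgeR adjusted p = 1.06e-05) and by 1.09 ± 0.12 in KO (edgeR adjusted p = 0.000281). The cholesterol exporter Abca1, which loads lipid onto apolipoprotein A-I, rose by 0.61 ± 0.09 and 0.52 ± 0.09 (edgeR adjusted p = 0.000679 and 0.00624). The KO count of 4 fell to 2 without KO chow replicate 1. Between genotypes, 3 rose and 6 fell in KO on HFCF, and 2 rose and 2 fell on chow. Over all tested genes, 13.7% and 2.65% were called for the diet in WT and KO. For the genotype 15.5% were called on chow and 19.1% on HFCF. The chow genotype count of 4 lies near its share and is no result about the list. Lpl rose by 1.72 ± 0.13 on chow and 1.23 ± 0.12 on HFCF (edgeR adjusted p = 3.66e-06 and 1.85e-05).

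Among 39 regulators, which include the deleted gene Nr0b2, 2 rose and 7 fell in KO livers on HFCF, and 2 rose and 3 fell on chow. Over all tested genes, 19.1% were called on HFCF and 15.5% on chow. The list's genotype counts lie near these shares and are no result about the list. Besides Nr0b2, Pparg fell on chow (-2.11 ± 0.29) and HFCF (-2.49 ± 0.27; edgeR adjusted p = 0.000405 and 4.48e-05), and the estrogen receptor gene Esr1 rose on HFCF (1.07 ± 0.20, edgeR adjusted p = 0.00226). With the diet 5 rose and 3 fell in WT, and 2 rose and 1 fell in KO, beside 13.7% and 2.65% of all tested genes called. Srebf1, the regulator of fatty acid synthesis, rose by 2.27 ± 0.16 in WT and 1.07 ± 0.16 in KO (edgeR adjusted p = 2.89e-06 and 0.00236). Srebf2, the regulator of cholesterol synthesis, fell in both (-0.90 ± 0.10 and -0.80 ± 0.10; edgeR adjusted p = 0.000147 and 0.000834). The HFCF genotype count of 9 fell to 5 without KO HFCF replicate 1, and the diet count of 8 in WT fell to 5 without WT chow replicate 1 or 2. The chow genotype count of 5 ranged from 2, without WT chow replicate 1 or 3, to 8, without WT HFCF replicate 1 or 3, and it moved by over 1.5 times on leaving out any library except KO chow replicate 3.

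**Figure D5:**
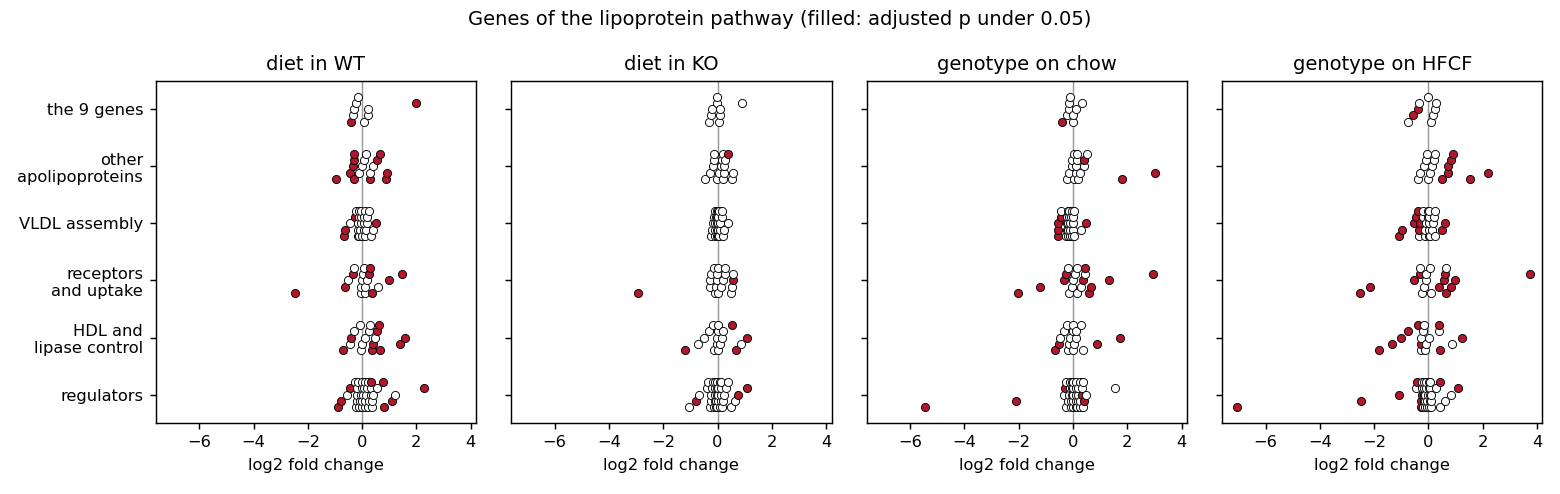
Log2 fold changes of the 9 genes and of the 5 lists in the 4 comparisons, 1 point per gene, filled where the edgeR adjusted p is under 0.05. The 9 genes lie between -0.75 and 1.97 in all panels, and the lists hold points from -7.05 (Nr0b2) to 3.72 (Lrp2).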

How the data were processed

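Liver RNA was isolated with Trizol and spin columns, depleted of ribosomal RNA and sequenced from stranded libraries, per the labels' protocols. Per the file headers, the authors deposited a count of reads for each gene and library. Beside it stands the FPKM of the authors, which equalled the count over gene length and a constant of the library. Submitters' processing notes name build mm10. No source used here names the aligner, the counting tool or the annotation. Columns and groups were matched through the labels.

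Counts were filtered with filterByExpr (minimum count 10, minimum total 15), which left 14736 of 15846 genes, and the model was 4 group means with TMM scaling in edgeR 4.0.16 (glmQLFit, glmQLFTest; R 4.3.3). FPKM values were used for levels and ratios between genes. Alternatives were RLE and upper quartile scaling, library totals alone, TMM without the 9 genes, no filter, a stricter filter (at least 1 CPM in 6 libraries), a replicate block, DESeq2 1.42.0, limma voom 3.58.1, the compared groups only, and leaving out each library. Scripts were tested on simulated data. Replicate libraries differed by more than sampling noise (chi-square per degree of freedom 11.2 to 34.4 over genes with at least 20 counts). Named genes were the 9 members, Nr0b2, up to 4 genes per list and comparison with the lowest adjusted p, the cluster's neighbours, chosen markers, and the 4 genes most like the 2 most variable members; which of these to print was decided with their values known. The members and lists were chosen with earlier results of these data known. Positions use mm10 with the files' starts counted from 1. Figures used Python 3.11.15 and matplotlib 3.10.9. Some genes of the lists are not reported here by name.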

Additional observations from a re-analysis of the deposited data

Results flagged for a closer look

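The interaction term of edgeR's fit, which compares the diet effect between KO and WT livers, called 3 genes of the pathway lists. These were 1 of 28 genes of VLDL assembly, 1 of 18 of HDL and lipase control and 1 of 39 regulators. Of the 17 other apolipoproteins and the 19 receptor genes 0 were called. Over all tested genes 0.794% were called, and counts of 0 or 1 are no result about a list. Hspa5, the endoplasmic reticulum chaperone BiP, had a KO diet effect above that in WT by a log2 of 1.04 ± 0.22 (edgeR adjusted p = 0.0497). Its call was lost in 15 of 21 alternatives, with adjusted p-values from 0.000606 to 0.133. Pcsk6, a convertase that cleaves lipases, had a KO diet effect below that in WT (-0.58 ± 0.11, edgeR adjusted p = 0.0341), lost in 8 of 21 with adjusted p-values from 0.000129 to 0.0788. Srebf1 had a KO diet effect below that in WT (-1.20 ± 0.22, edgeR adjusted p = 0.0341), lost in 7 of 21 with adjusted p-values from 5.31e-05 to 0.0715. None of the 9 lipoprotein genes was among them, and 1 of the 9, Apoa1, had an unadjusted p under 0.05.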

How the results depend on the processing

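The count of the 9 genes called for the diet in WT was 2 and ranged from 0 to 2 when 1 library was left out (0 without WT chow replicate 3, and 1 on leaving out WT chow replicate 1, WT chow replicate 2 or WT HFCF replicate 1). For the genotype on chow it was 1 and ranged from 0 (without WT chow replicate 3) to 1, and on HFCF it was 2 and ranged from 1 (without KO HFCF replicate 2) to 3, with 4 by DESeq2 and 1 in the compared groups alone. The diet in KO and the interaction gave 0 under every alternative, DESeq2 included. Over all genes, 2013 calls for the diet in WT ranged from 1100 (without WT chow replicate 3) to 2264, with 1255 on leaving out WT chow replicate 1 and 1303 for WT HFCF replicate 1. For the diet in KO 390 became 656 by DESeq2 and 603 in the compared groups alone, and ranged from 157 (without KO chow replicate 1) to 776 (without WT HFCF replicate 1), with 254 without KO chow replicate 2 and 169 and 178 without KO HFCF replicates 1 and 2. For the genotype on chow 2289 ranged from 1152 (without WT chow replicate 3) to 2788, with 1442 without KO chow replicate 2, and on HFCF 2814 ranged from 2042 to 2834. The 117 interaction calls became 212 with library totals alone and 344 by DESeq2, and ranged from 11 (without KO HFCF replicate 2) to 136; leaving out any library but KO chow replicate 2 or WT HFCF replicate 1 or 3 brought them to 46 or fewer. With library totals alone, higher and lower calls were 1309 and 622 for the diet in WT (1144 and 869 with TMM), 151 and 368 for the diet in KO (216 and 174), 1649 and 499 for the genotype on chow (1432 and 857), 1275 and 1712 on HFCF (1558 and 1256), and 43 and 169 for the interaction (55 and 62), where the median of all genes moved by -0.107. Differences near 0 changed sign, with the cause not tested: with library totals alone Apoa2 for the diet in KO (-0.02329), Mttp for the genotype on chow (0.03762) and Mttp for the interaction (-0.01814); with upper quartile scaling Lcat for the diet in KO (0.0009296), Mttp on chow (0.001581) and Apoa5 on HFCF (0.01069); and Apoa5 on chow with RLE (-0.003149), no filter (-0.0017) and DESeq2 (-0.003152). When 1 library was left out, sign changes came for Apoc3 for the diet in WT (range -0.01156 to 0.1234), Apob and Lcat for the diet in KO (-0.06018 to 0.0455 and -0.09795 to 0.05715), Apoa5 and Mttp on chow (-0.03685 to 0.03343 and -0.1104 to 0.0435), Apoa5 on HFCF (-0.2531 to 0.1387) and Apoa5 for the interaction (-0.2535 to 0.1385). No pairing by replicate number was assumed, and whether the numbers mark a shared batch was not settled. Over all groups, deviations of same-numbered libraries correlated at -0.134 to 0.136 (over 0.1 in 3 of 18 pairs) and of others at -0.127 to 0.133 (3 of 36). Between WT chow and WT HFCF the same-numbered values were 0.0824, 0.136 and 0.107, and the others -0.0803 to -0.0276. Between KO chow and KO HFCF the same-numbered values were -0.0308, -0.0287 and -0.134. With a replicate block the counts for the 9 genes were 2, 0, 1, 2 and 0, as without it, and 1813, 386, 2113 and 2673 genes were called in the first 4 comparisons. The number of livers, 3 in each group, limits the precision of all differences.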
